A study of Mus musculus with 4 samples.

Results

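Rab GTPases were described in mouse bone marrow-derived dendritic cells treated with Wnt2 or with medium conditioned by CAFs. The members are all protein-coding genes in the deposited tables whose symbol is Rab followed by a number and at most 1 letter, and 44 of 13685 listed genes met this rule. They were sorted by known trafficking step into 7 early endosome, 7 recycling, 7 late endosome, 9 secretion, 11 ER and Golgi and 3 other members. All groups were cultured for 7 days with GM-CSF and IL-4, each at 10 ng/ml, from bone marrow of C57BL/6 mice that were 4 weeks old. One group received Wnt2, a secreted signalling protein. Another received CAF culture medium, CAF.CM, after the medium had been pre-incubated with a Wnt2 antibody (CAF.CM + Wnt2 Ab), and a further group received CAF.CM without antibody. CAF commonly stands for cancer-associated fibroblast. The last group was kept in control medium.

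Rab proteins are small GTPases of the Ras superfamily that mark the membranes of the cell. Bound to GTP, a Rab sits on its own membrane through a prenyl anchor and recruits effectors that move, tether or fuse vesicles. Exchange factors switch it on, GTPase-activating proteins switch it off, and GDI carries the inactive form through the cytosol. In dendritic cells these steps route internalised antigen from early endosomes to recycling or to late endosomes and lysosomes, and bring MHC molecules and cytokines to the cell surface.

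Each group had 1 column of read counts scaled by library size (CPM), treated as 1 library. Triplicates are mentioned in the series text, but a pooling of several libraries in a column is neither stated nor denied in the sources used here. No difference below therefore has a replicate check, and no p-value was computed. Intervals are 95% exact binomial intervals on log2 ratios and cover counting error only. Reads in listed genes numbered 154399767 in Wnt2, 22791494 in CAF.CM + Wnt2 Ab, 25225220 in CAF.CM and 143071376 in control medium, so counting error is larger in both CAF.CM libraries. Read depth thus splits the libraries in the same way as CAF.CM does. Where both CAF.CM libraries differ from Wnt2 and control medium, medium and depth cannot be told apart. Dendritic cell markers were listed for 15 of 16 genes in Wnt2, 13 in CAF.CM + Wnt2 Ab, 13 in CAF.CM and 15 in control medium. Their summed level was 819.5 CPM in Wnt2, 1851 in CAF.CM + Wnt2 Ab, 1985 in CAF.CM and 3729 in control medium, and none was listed at 0. The integrin gene Itgax, which encodes CD11c, had 223 CPM in Wnt2, 30.3 in CAF.CM + Wnt2 Ab, 47.7 in CAF.CM and 888 in control medium. Ciita, Cd74, H2-Aa, H2-Eb1, Batf3, Irf8 and Dpp4 were also lower in every treated library than in control medium. Some other dendritic markers did not follow Itgax. Irf4 had 89.01 CPM in Wnt2, 124 in CAF.CM + Wnt2 Ab, 172 in CAF.CM and 91.2 in control medium, and Zbtb46 had 10.3, 21.2, 17.1 and 15.7 CPM in those libraries. H2-Ab1 had 71.02 CPM in Wnt2, but 521 in CAF.CM + Wnt2 Ab and 483 in CAF.CM, against 489 in control medium. Clec9a was higher in Wnt2, at 29.5 CPM, than in control medium, at 16.5 CPM. Summed markers of other cells also differed between libraries. Macrophage markers (11 to 12 of 13 listed) summed to 1942 CPM in Wnt2, 1298 in CAF.CM + Wnt2 Ab, 1705 in CAF.CM and 2842 in control medium. Neutrophil markers (4 to 5 of 13 listed) summed to 1825 CPM in Wnt2, 128 in CAF.CM + Wnt2 Ab, 184 in CAF.CM and 861 in control medium. Mmp8 alone made up 1489 CPM of this sum in Wnt2, 140 in CAF.CM and 544 in control medium. S100a9, Ly6g, Mpo, Elane, Camp, Ngp, Ltf and Retnlg were not listed. Fibroblast markers (4 to 7 of 11 listed) summed to 15.4 CPM in Wnt2, 65.5 in CAF.CM + Wnt2 Ab, 39.3 in CAF.CM and 15.8 in control medium. Col5a1 alone made up 49.1 CPM of this sum in CAF.CM + Wnt2 Ab, 23.6 in CAF.CM and 5.1 in control medium. Col1a1, Lum, Pdgfra and Fap were not listed. Mast cell and basophil, eosinophil and lymphocyte markers each summed to 16.5 CPM or less wherever any were listed. The part of these markers in the Rab values was not tested, and in such bulk RNA fewer cells of a type and less RNA per cell cannot be told apart.

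The start regions of members at least 2-fold apart in CAF.CM are shown because these genes carry the largest differences. Promoters in RefSeq (build GRCm38.p6) matched 38 of 44 members, and Rab7b was not among them. The first 4 sequences are the 250 bases before the most upstream start, on the gene's own strand. Rab7 lies at chr6:88045271-88045520 on the minus strand, Rab31 at chr17:65772753-65773002 on the minus strand, Rab43 at chr6:87812165-87812414 on the minus strand and Rab33a at chrX:48519035-48519284 on the plus strand. For Rab20 (chr8:11478669-11478698, minus strand) and Rab21 (chr10:115315604-115315633, minus strand) the 30 bases around a CACGTG word are given, with the word in capitals. Rab21 is set beside Rab20 as a member with the same word and nearly the same level in every library. The Rab20 window lies inside the first exon of the GENCODE M21 annotation, which begins further upstream than RefSeq's.
Rab7: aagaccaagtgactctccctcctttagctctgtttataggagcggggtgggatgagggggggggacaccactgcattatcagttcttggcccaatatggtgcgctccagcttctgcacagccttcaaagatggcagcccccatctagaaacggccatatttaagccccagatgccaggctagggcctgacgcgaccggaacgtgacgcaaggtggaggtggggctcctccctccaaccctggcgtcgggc
Rab31: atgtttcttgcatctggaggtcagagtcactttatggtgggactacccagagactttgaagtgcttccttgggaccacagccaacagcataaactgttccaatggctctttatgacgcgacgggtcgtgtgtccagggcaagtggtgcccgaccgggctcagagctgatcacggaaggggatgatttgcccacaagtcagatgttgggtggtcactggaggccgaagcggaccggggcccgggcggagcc
Rab43: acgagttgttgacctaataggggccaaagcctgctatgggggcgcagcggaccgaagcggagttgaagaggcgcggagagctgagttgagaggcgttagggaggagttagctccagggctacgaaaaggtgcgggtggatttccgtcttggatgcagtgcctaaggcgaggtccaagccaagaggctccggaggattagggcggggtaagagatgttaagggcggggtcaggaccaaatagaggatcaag
Rab33a: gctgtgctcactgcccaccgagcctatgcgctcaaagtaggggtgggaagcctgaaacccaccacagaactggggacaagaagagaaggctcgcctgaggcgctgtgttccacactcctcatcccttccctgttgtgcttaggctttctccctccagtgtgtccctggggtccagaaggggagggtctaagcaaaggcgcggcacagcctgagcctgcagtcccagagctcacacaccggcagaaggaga
Rab20: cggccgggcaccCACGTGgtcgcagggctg
Rab21: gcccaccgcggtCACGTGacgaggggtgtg

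CACGTG, the word read by basic helix-loop-helix factors such as the lysosomal gene regulator TFEB, the interferon response core (GAAA, 2 bases of any kind, GAAA) and CTTTGAT, the word read by the TCF and LEF factors of Wnt signalling, were searched on both strands in the 250 bases before each start. CACGTG occurred in 5 of 47 member promoters (10.6%), against 6.02% of 32851 promoters of all genes. It lay 46 bases before the Rab20 start, 30 before that of Rab21, 218 before that of Rab23, 246 before 1 start of Rab27a, and both 235 and 95 before that of Rab5a. The interferon response core occurred in 1 member promoter, that of Rab19, against 2.98% of all promoters, and CTTTGAT in 0 of 47, against 3.21%. In CAF.CM against control medium the 5 members with CACGTG had log2 ratios of 1.06 for Rab20, 0.92 for Rab27a, -0.004 for Rab21, -0.12 for Rab23 and -0.38 for Rab5a.

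By level per kilobase, Rab7 was the most abundant member in Wnt2 and control medium, and Rab10 in both CAF.CM libraries. Per kilobase of exon, which allows for gene length, Rab7 led in Wnt2 with 161 CPM per kb, against 146 in control medium. The length covers all annotated exons of a gene, not the transcript in use, so ranks and sums depend on it. Rab14, for example, had 197 CPM in control medium but 14.5 CPM per kb, over 13589 bases. Rab10 led in both CAF.CM libraries, with 92.0 CPM per kb in CAF.CM + Wnt2 Ab and 92.6 in CAF.CM, against 53.8 in control medium. Rab8b and Rab5c were among the 5 most abundant members in every library. The median member had 12.3 CPM per kb in Wnt2, 8.81 in CAF.CM + Wnt2 Ab, 10.5 in CAF.CM and 13.2 in control medium. At the low end, Rab27b had 0.084 CPM per kb in Wnt2, 0.058 in CAF.CM and 0.107 in control medium.

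**Figure D1:**
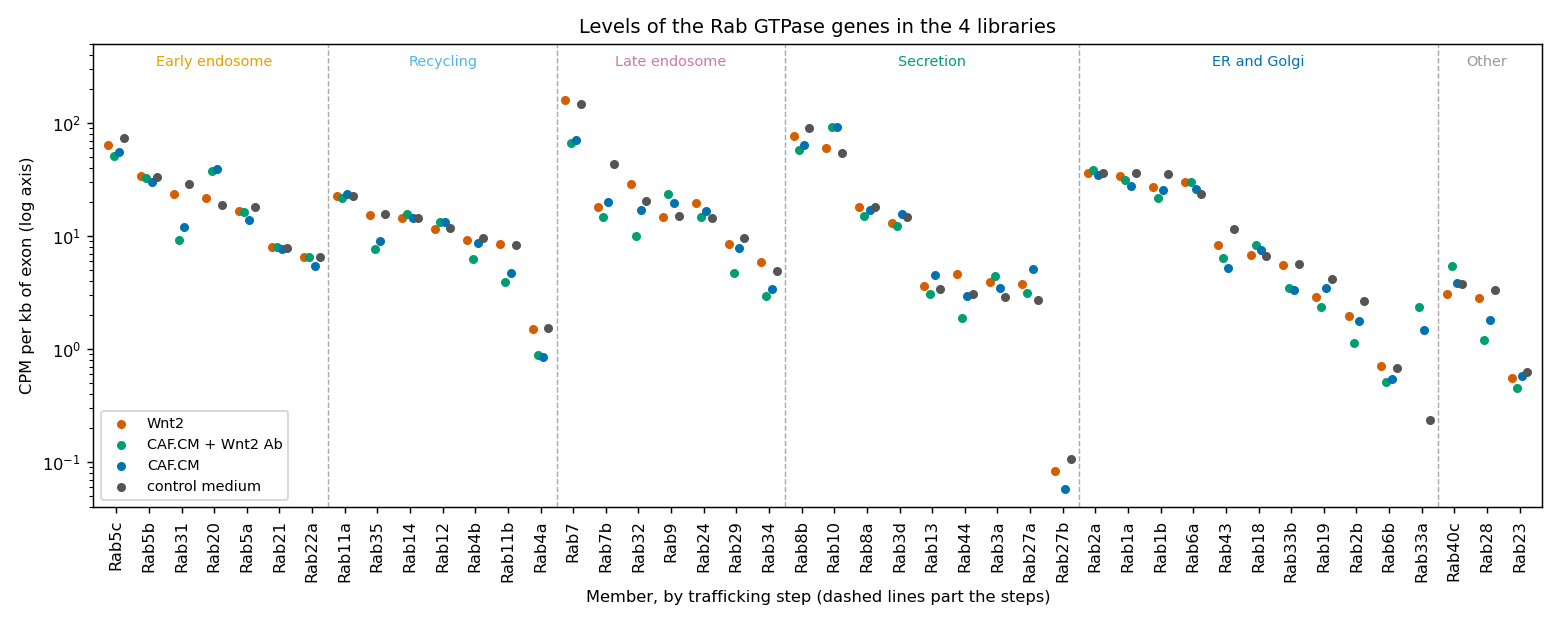
Level of each Rab gene in CPM per kb of exon (log axis), by trafficking step, with 1 point per library (Wnt2, CAF.CM + Wnt2 Ab, CAF.CM, control medium) and no error bars. Rab7 stands at 161 CPM per kb in Wnt2 and 146 in control medium, above its 66.1 in CAF.CM + Wnt2 Ab and 71.4 in CAF.CM.

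Late endosome members took a smaller share of Rab transcripts in both CAF.CM libraries. Over the 42 members with a value in all 4 libraries, their summed level was 257 CPM per kb in Wnt2, 137 in CAF.CM + Wnt2 Ab, 156 in CAF.CM and 254 in control medium. That was 29.9% of all members' summed level in Wnt2, 19.3% in CAF.CM + Wnt2 Ab, 21.02% in CAF.CM and 28.7% in control medium. Rab7 supplied most of the gap: without it the late endosome sum was 96.1 CPM per kb in Wnt2, 70.9 in CAF.CM + Wnt2 Ab, 84.5 in CAF.CM and 108 in control medium. Secretion members summed to 183 CPM per kb in Wnt2, 189 in CAF.CM + Wnt2 Ab, 205 in CAF.CM and 190.0 in control medium, with Rab10 and Rab8b as the main contributors. Early endosome sums were 175 CPM per kb in Wnt2, 161 in CAF.CM + Wnt2 Ab, 164 in CAF.CM and 187 in control medium. Recycling sums were 83.6 CPM per kb in Wnt2, 69.7 in CAF.CM + Wnt2 Ab, 74.96 in CAF.CM and 84.3 in control medium, and ER and Golgi sums 154, 144, 136 and 162 in those libraries.

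**Figure D2:**
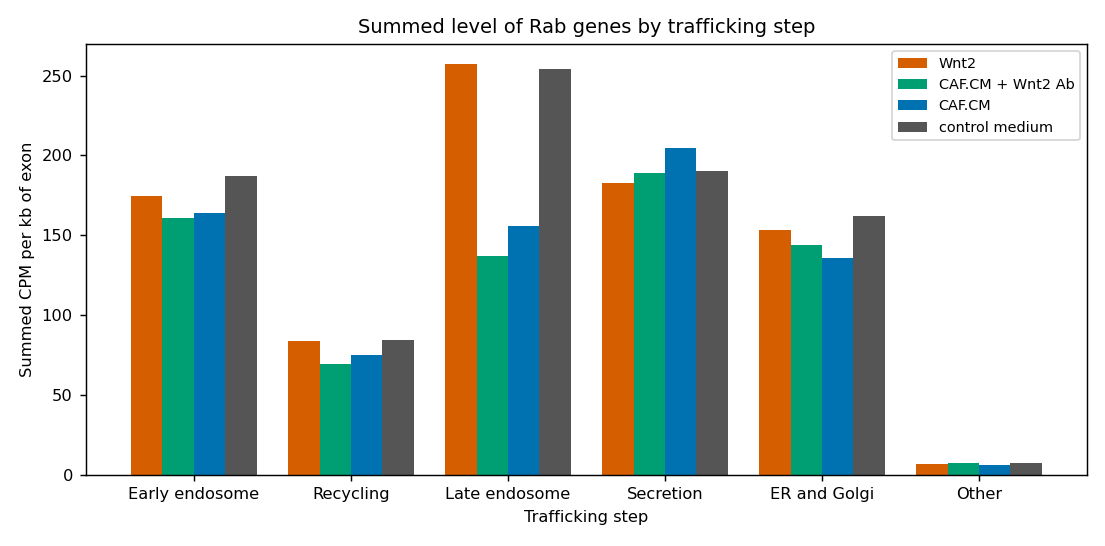
Summed level of the 42 Rab genes listed in all 4 libraries, in CPM per kb of exon, by trafficking step, with 1 bar per library (Wnt2, CAF.CM + Wnt2 Ab, CAF.CM, control medium). The late endosome bars are 257 in Wnt2 and 254 in control medium, and 137 and 156 in CAF.CM + Wnt2 Ab and CAF.CM.

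The first comparison, Wnt2 against control medium, asks which genes respond to Wnt2. Of 43 listed members, 0 were at least 2-fold higher and 1, Rab7b, was at least 2-fold lower (2.33% of members). Over all 13120 listed genes, 2.87% were at least 2-fold higher and 2.93% lower (2.68% and 2.81% of protein-coding genes). At 1.5-fold the members' counts stayed at 0 and 1, against 7.38% higher and 8.0% lower over all genes. The members' median log2 ratio was -0.02, that of all listed genes was also -0.02, and members ranged from -1.24 to 0.57.

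In the second comparison, CAF.CM against control medium, 2 of 44 members were at least 2-fold higher, Rab33a and Rab20. Another 4 were at least 2-fold lower, Rab31, Rab43, Rab7b and Rab7. The counts are 4.55% and 9.09% of members, against 6.68% and 8.69% of 13329 listed genes. Over protein-coding genes the shares were 5.72% and 8.67%, so both member shares were near the background. Rab33a rests on few reads, and its listing required it to be higher in CAF.CM. At 1.5-fold, 4 members (9.09%) were higher and 10 (22.7%) lower, against 13.8% and 17.9% over all genes. The median log2 ratio of members was -0.20, against -0.04 over all listed genes, with 15 members above 0 and 29 below. The listed genes as a whole also leaned below 0, with 6219 above and 7110 below. Among protein-coding genes 5184 lay above and 6345 below. When libraries were scaled on protein-coding genes only, which moved the median of all listed genes up by 0.16, the members' median was -0.04, 3 members were called higher, with Rab27a beside Rab33a and Rab20, and only Rab31 was called lower.

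The third comparison, CAF.CM + Wnt2 Ab against CAF.CM, asks what incubation with the antibody changed. No member was at least 2-fold higher or lower among 43 listed, against 1.02% higher and 3.65% lower over 13072 listed genes (0.701% and 3.59% of protein-coding genes). At 1.5-fold, 1 member was higher, Rab33a, and 5 were lower, Rab32, Rab29, Rab27a, Rab2b and Rab44 (2.33% and 11.6% of members, against 4.4% and 10.7% of all genes). The median log2 ratio was -0.12, against -0.04 over all listed genes. The first and second comparisons share the control library and the second and the third share the CAF.CM library, so they are not independent of each other.

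**Figure D3:**
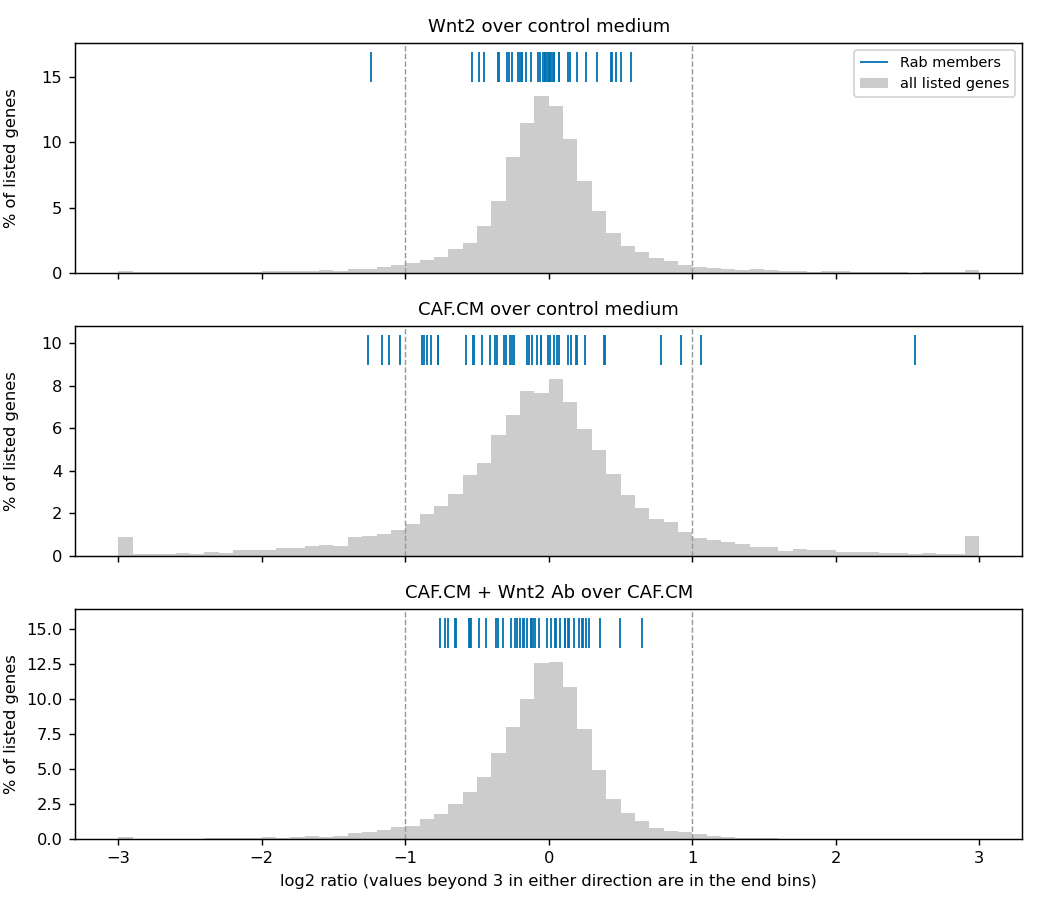
Distribution of log2 ratios over all listed genes (grey, percent of genes per bin of the log2 ratio) with each Rab gene as a blue tick, for Wnt2 over control medium, CAF.CM over control medium and CAF.CM + Wnt2 Ab over CAF.CM; dashed lines mark 2-fold. Rab ticks lie within the range of the listed genes in each panel, with Rab7b at -1.24 in the first and Rab33a at 2.55 in the second as the outermost members. Rab33a is listed in the second panel only through the CAF.CM library.

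Among late endosome members, Rab7, which drives fusion of late endosomes with lysosomes, had 419.9 CPM in Wnt2, 173 CPM in CAF.CM + Wnt2 Ab, 186 CPM in CAF.CM and 382 CPM in control medium. The libraries fell into a high pair, Wnt2 and control medium, and a low pair, the CAF.CM libraries. The same pairs differ in read depth, which cannot be told apart from the medium here. Its log2 ratio was 0.14 (interval 0.12 to 0.15) in Wnt2 against control medium and -1.04 (interval -1.08 to -0.99) in CAF.CM against control medium, 2.05-fold lower. That call sits at the threshold, since the interval reaches above -1 and the log2 ratio was -0.99 with DESeq2 size factors, -0.99 with own TMM factors, -0.97 with total counts and -0.87 with scaling on protein-coding genes. The antibody library differed little from CAF.CM, with a log2 ratio of -0.11 (interval -0.17 to -0.05). Rab7 spans chr6:87999106-88045270 on the minus strand (GENCODE M21, GRCm38).

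Rab7b, which in human cells directs transport from late endosomes to the Golgi, had 84.4 CPM in Wnt2, 67.9 CPM in CAF.CM + Wnt2 Ab, 91.8 CPM in CAF.CM and 199 CPM in control medium. It was lower in every treated library than in control medium. The log2 ratio to control medium was -1.24 (interval -1.27 to -1.21, 2.36-fold lower) in Wnt2 and -1.12 (interval -1.18 to -1.06, 2.17-fold lower) in CAF.CM, and -0.95 in CAF.CM with scaling on protein-coding genes, which ended the call. Antibody against CAF.CM gave -0.43 (interval -0.53 to -0.34). Rab7b lies at chr1:131688695-131715439 on the plus strand. The dendritic and macrophage marker sums were also lower in each treated library than in control medium, and their part in the Rab7b values was not tested.

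Of the other late endosome members, Rab32, a regulator of lysosome-related organelles, had 67.6 CPM in Wnt2, 23.6 CPM in CAF.CM + Wnt2 Ab, 39.8 CPM in CAF.CM and 47.6 CPM in control medium. It was highest in Wnt2 and lowest with the antibody, with log2 ratios of 0.50 in Wnt2 against control medium, -0.26 in CAF.CM against control medium and -0.75 (interval -0.91 to -0.61) in CAF.CM + Wnt2 Ab against CAF.CM. Rab29, which works at the Golgi and lysosomes with the kinase LRRK2, had 12.5 CPM in Wnt2, 6.90 CPM in CAF.CM + Wnt2 Ab, 11.4 CPM in CAF.CM and 14.2 CPM in control medium, with -0.72 (interval -1.02 to -0.45) for antibody against CAF.CM. Rab9, which returns mannose 6-phosphate receptors to the Golgi, was at 0.39 in CAF.CM against control medium. Rab24, linked to autophagy, and Rab34, linked to macropinosomes and lysosome position, stood at 0.20 and -0.53. In that comparison 5 of 7 late endosome members lay below 0, with a median of -0.31. Over all 13329 listed genes 7110 lay below 0, with a median of -0.04. Other steps were alike, with 6 of 7 early endosome members (median -0.24) and 8 of 11 ER and Golgi members (median -0.30) below 0.

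Early endosome members were led by Rab5c, a regulator of early endosome fusion, with 142 CPM in Wnt2, 111 CPM in CAF.CM + Wnt2 Ab, 121 CPM in CAF.CM and 161 CPM in control medium. Its log2 ratio was -0.19 in Wnt2 and -0.41 (interval -0.46 to -0.35) in CAF.CM, each against control medium. Rab5a and Rab5b, which share that role, were at -0.38 and -0.15 in CAF.CM. The 3 Rab5 genes thus lay within 0.26 of each other in CAF.CM and within 0.20 in Wnt2.

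Rab31, a relative of Rab22a that carries cargo between the trans-Golgi network and endosomes, had 89.6 CPM in Wnt2, 35.4 CPM in CAF.CM + Wnt2 Ab, 45.7 CPM in CAF.CM and 109 CPM in control medium. Both CAF.CM libraries were low and the Wnt2 library was nearer to control medium. The log2 ratio was -1.26 (interval -1.35 to -1.18, 2.395-fold lower) in CAF.CM against control medium, -0.29 (interval -0.32 to -0.26) in Wnt2 against control medium and -0.37 (interval -0.50 to -0.24) with antibody against CAF.CM. Of the 4 members called lower in CAF.CM, Rab31 was the only one still at least 2-fold lower with scaling on protein-coding genes (-1.10). Rab31 lies at chr17:65651729-65772752 on the minus strand. Rab22a itself was at -0.24 in CAF.CM.

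Rab20, which acts on endosomes and phagosomes, was higher in CAF.CM. It had 29.96 CPM in Wnt2, 52.1 CPM in CAF.CM + Wnt2 Ab, 54.5 CPM in CAF.CM and 26.2 CPM in control medium. The CAF.CM libraries were high whether or not the antibody was present: the log2 ratio was 1.06 (interval 0.97 to 1.15, 2.08-fold higher) in CAF.CM against control medium and -0.07 (interval -0.18 to 0.04) with antibody against CAF.CM. Since the first interval reaches below 1, counting error alone leaves the 2-fold call undecided. Rab20 lies at chr8:11453518-11478710 on the minus strand, and 25.6% of its exon bases overlap the opposite-strand gene E230013L22Rik, which had 1.77 CPM in Wnt2, 3.49 in CAF.CM + Wnt2 Ab, 3.73 in CAF.CM and 1.57 in control medium. The use of strand in counting is not stated in the sources used here. Rab21, known from integrin endocytosis, had between 39.2 and 40.3 CPM in all 4 libraries.

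**Figure D4:**
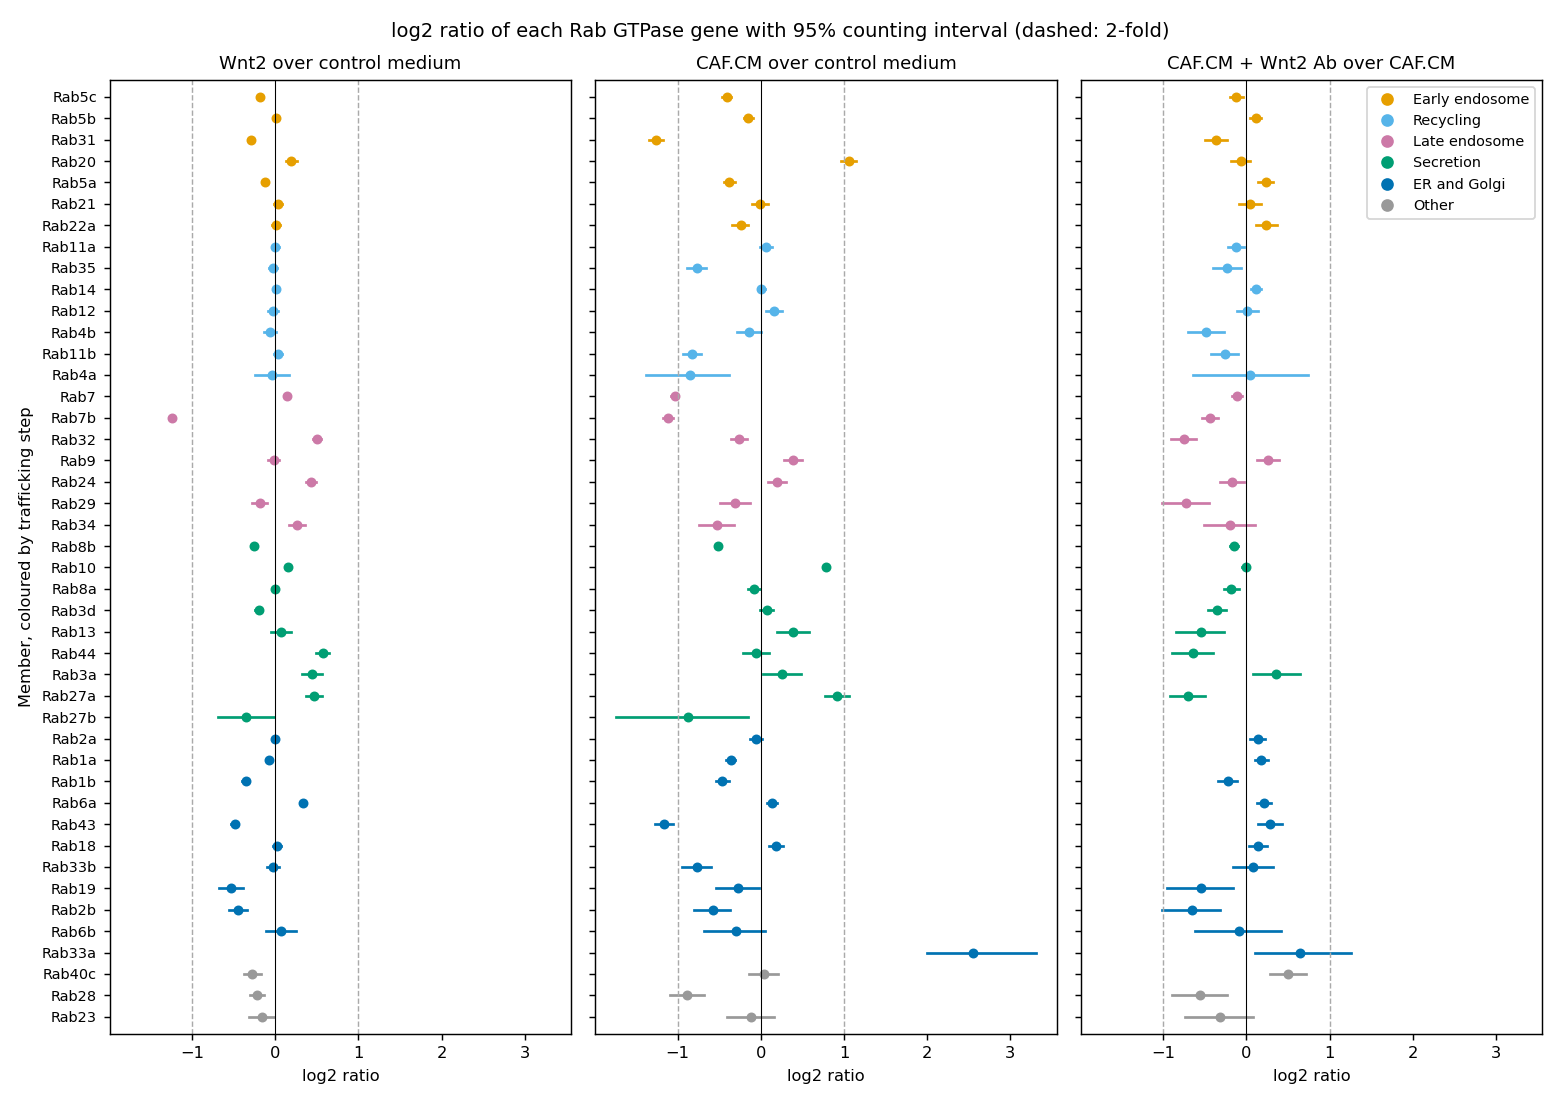
log2 ratio of each Rab gene, coloured by trafficking step, for Wnt2 over control medium, CAF.CM over control medium and CAF.CM + Wnt2 Ab over CAF.CM. Points are ratios, bars are 95% exact counting intervals and dashed lines mark 2-fold; Rab33a, at 2.55 in the middle panel, is listed there only through the CAF.CM library.

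Recycling members were nearly level between Wnt2 and control medium. All 7 lay between log2 ratios of -0.06 and 0.03, and Rab11a, the main Rab of the recycling endosome, had 68.3 CPM in Wnt2, 65.2 CPM in CAF.CM + Wnt2 Ab, 71.2 CPM in CAF.CM and 68.3 CPM in control medium. In CAF.CM against control medium 0 of 7 were called at 2-fold, and 3 of 7, Rab11b, Rab35 and Rab4a, were at least 1.5-fold lower, against 17.9% of all listed genes at that threshold. Rab11b had 52.5 CPM in Wnt2, 24.1 CPM in CAF.CM + Wnt2 Ab, 28.96 CPM in CAF.CM and 51.2 CPM in control medium, a log2 ratio of -0.82 (interval -0.93 to -0.72) for CAF.CM. Rab35, which returns cargo rapidly to the plasma membrane, had 43.0 CPM in Wnt2, 21.8 CPM in CAF.CM + Wnt2 Ab, 25.7 CPM in CAF.CM and 43.8 CPM in control medium, a log2 ratio of -0.77 (interval -0.89 to -0.66). Like Rab7, these 2 genes were low in both CAF.CM libraries and near control medium in Wnt2. Rab4a, a fast recycling Rab, rested on few reads and was at -0.85 (interval -1.38 to -0.38). Rab4b was at -0.14, Rab12 at 0.15 and Rab14, which acts between Golgi and endosomes, at 0.01.

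Secretion members were led by Rab8b, a regulator of exocytosis, with 362 CPM in Wnt2, 272 CPM in CAF.CM + Wnt2 Ab, 301 CPM in CAF.CM and 431 CPM in control medium. Its log2 ratio was -0.25 in Wnt2 and -0.52 (interval -0.55 to -0.48) in CAF.CM, each against control medium, while its paralogue Rab8a was at -0.0005 and -0.08. Rab10, known for insertion of vesicles into the plasma membrane, had 209.6 CPM in Wnt2, 323 CPM in CAF.CM + Wnt2 Ab, 325 CPM in CAF.CM and 189 CPM in control medium. It was high in both CAF.CM libraries, with a log2 ratio of 0.78 (interval 0.75 to 0.82) in CAF.CM against control medium and -0.01 (interval -0.05 to 0.04) with antibody against CAF.CM.

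Rab27a, which docks secretory granules and exosome-bearing endosomes at the plasma membrane, had 14.5 CPM in Wnt2, 12.2 CPM in CAF.CM + Wnt2 Ab, 19.8 CPM in CAF.CM and 10.5 CPM in control medium. Its log2 ratio was 0.47 in Wnt2 against control medium, 0.92 (interval 0.77 to 1.06) in CAF.CM against control medium and -0.70 (interval -0.92 to -0.49) with antibody against CAF.CM. The antibody library thus lay below both the CAF.CM and the Wnt2 library and above control medium. Rab27b, with 138 reads in Wnt2, 16 in CAF.CM and 162 in control medium, was at -0.87 (interval -1.74 to -0.15) in CAF.CM and is not listed in the antibody table. It reached 1.00 CPM in control medium only, so its place in both tables with control medium required it to be lower in the treated library. Rab44, a large Rab known from granule release in mouse mast cells, had 23.2 CPM in Wnt2, 9.61 CPM in CAF.CM + Wnt2 Ab, 15.1 CPM in CAF.CM and 15.6 CPM in control medium. It had the highest ratio of any member in Wnt2 against control medium, 0.57 (interval 0.49 to 0.65), and was at -0.64 with antibody against CAF.CM. In CAF.CM against control medium Rab3a and Rab3d, known from regulated exocytosis, were at 0.26 and 0.07, and Rab13, known from cell junctions, at 0.39.

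Rab33a, an ER and Golgi member and the paralogue of the Golgi and autophagy Rab Rab33b, had 2.76 CPM (64 reads) in CAF.CM + Wnt2 Ab, 1.73 CPM (45 reads) in CAF.CM and 0.276 CPM (39 reads) in control medium, and is not listed in the Wnt2 table. Every gene in the tables reached at least 1.00 CPM in 1 of its 2 libraries, so Rab33a is in the CAF.CM table only through the CAF.CM library, and such a gene had to be higher there. Both CAF.CM libraries were high and control medium was low. The log2 ratio of CAF.CM to control medium was 2.55 (interval 2.00 to 3.31, 5.85-fold higher), and that of antibody to CAF.CM was 0.65 (interval 0.10 to 1.26). Its low reads take it out of the count when at least 100 reads over both libraries are asked for. Rab33b was at -0.77 (interval -0.95 to -0.60) in CAF.CM. Rab33a is on chrX:48519285-48530232, plus strand.

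Rab43, a Golgi Rab with a role in cross-presentation by mouse classical dendritic cells, had 46.0 CPM in Wnt2, 35.0 CPM in CAF.CM + Wnt2 Ab, 28.8 CPM in CAF.CM and 64.5 CPM in control medium. It was lower in every treated library than in control medium, at -0.49 (interval -0.53 to -0.44) in Wnt2 and -1.16 (interval -1.27 to -1.05, 2.24-fold lower) in CAF.CM, and was higher with antibody than in CAF.CM, at 0.28 (interval 0.14 to 0.43). With scaling on protein-coding genes the CAF.CM value was -0.9997, just short of the call. Its reads cannot be assigned with certainty: 75.4% of its exon bases overlap the same-strand gene Gm45140, and 90.3% of the 31-base words of its longest transcript occur in other genes, most in Gm45140. Gm45140 had 20.6 CPM in Wnt2, 12.4 in CAF.CM + Wnt2 Ab, 21.7 in CAF.CM and 24.5 in control medium. Rab43 lies at chr6:87788853-87812164 on the minus strand.

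The most abundant ER and Golgi member per kilobase in control medium was Rab2a, which acts between ER and Golgi, with 76.9 CPM in Wnt2, 81.6 CPM in CAF.CM + Wnt2 Ab, 74.3 CPM in CAF.CM and 77.2 CPM in control medium. These 4 values are nearly level. Its paralogue Rab2b was lower in each comparison, at -0.45 in Wnt2 against control medium, -0.58 in CAF.CM against control medium and -0.66 (interval -1.02 to -0.32) with antibody against CAF.CM. Rab1a and Rab1b, required for ER to Golgi transport, were at -0.36 and -0.46 in CAF.CM, and Rab6a, which runs retrograde Golgi traffic, at 0.13 there and 0.34 in Wnt2. Rab18, known from lipid droplets, Rab19 and Rab6b stood at 0.19, -0.27 and -0.30 in CAF.CM. Among the remaining members Rab40c, a Rab with a ubiquitin ligase box, had 9.60 CPM in Wnt2, 16.8 CPM in CAF.CM + Wnt2 Ab, 11.9 CPM in CAF.CM and 11.6 CPM in control medium. It was highest with the antibody, at 0.49 (interval 0.28 to 0.72) against CAF.CM. Rab28 and Rab23, both linked to cilia, were at -0.88 (interval -1.09 to -0.68) and -0.12 in CAF.CM.

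**Figure D5:**
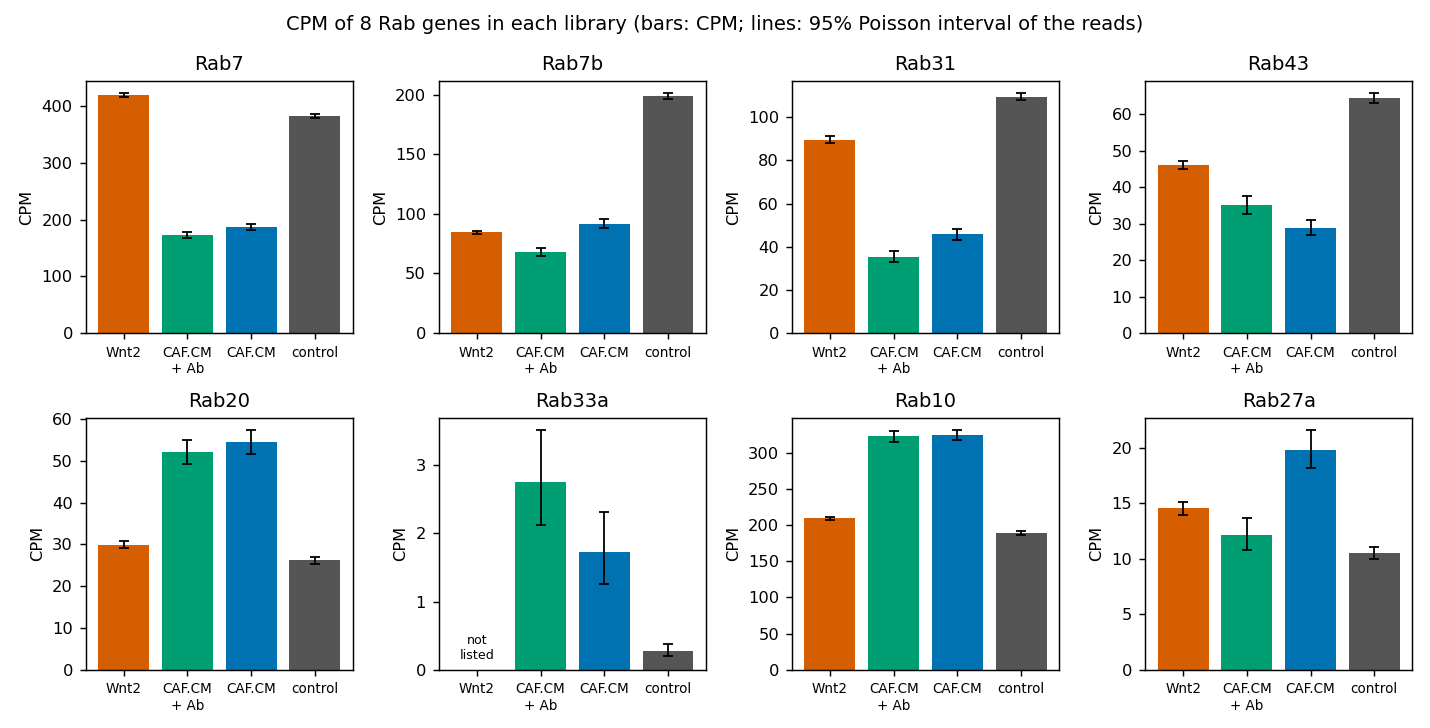
CPM of 8 Rab genes in each library (bars; lines are 95% Poisson intervals of the reads, counting error only), in the order Wnt2, CAF.CM + Wnt2 Ab, CAF.CM, control medium; axes differ between panels and start at 0. Rab7 and Rab31 are low in both CAF.CM libraries, Rab7b is low in all 3 treated libraries, and Rab20 and Rab10 are high in both CAF.CM libraries; Rab33a is not listed for Wnt2.

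Paralogues differed most in Wnt2 against control medium for Rab7 and Rab7b, which lay 1.37 apart on the log2 scale, while in CAF.CM against control medium the same pair lay 0.08 apart. In CAF.CM the widest pairs were Rab33a and Rab33b, 3.32 apart, and Rab27a and Rab27b, 1.79 apart, but Rab33a and Rab27b rest on few reads. Their listing also required Rab33a to be higher and Rab27b to be lower in CAF.CM than in control medium. The rank of these pairs therefore depends in part on which genes were listed. Rab11a and Rab11b lay 0.88 apart there, and Rab4a and Rab4b 0.71. Rab4b shares 93.1% of the words of its longest transcript with other genes, most with Gm21983, and its values are uncertain for that reason. Shared words came to 17.8% for Rab7, most with the pseudogene Rab7-ps1, 15.7% for Rab5b, 14.96% for Rab9, 11.1% for Rab11b and 10.8% for Rab2a, each most with a processed pseudogene. Rab24 and Rab2b overlap opposite-strand genes over 62.4% and 64.0% of their exon bases, so their values also depend on whether strand was used.

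The genes that act on Rabs were counted in lists of exchange factors, GTPase-activating proteins, GDI and prenylation genes and effectors by step, 140 genes in all. In Wnt2 against control medium, 2 of 123 listed were at least 2-fold higher and 2 lower. Over all listed genes the shares were 2.87% and 2.93%, and counts this small do not set these lists apart. The median of the lists was -0.05. In CAF.CM against control medium 9 of 123 were lower and 3 higher, against 8.69% lower and 6.68% higher over all listed genes, and the median was -0.18, against -0.04 over all genes. Of those higher, Tbc1d30 and Sytl3 reached 1.00 CPM in CAF.CM only, so their place in this comparison required them to be higher. With antibody against CAF.CM, 1 of 125 was lower and 0 higher, against 3.65% and 1.02% of all listed genes, and the median was -0.07. GDI and prenylation genes had 0 of 7 beyond 2-fold in any comparison.

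Of the exchange factors, Rab3il1, a relative of the Rab8 activator Rabin8, had 16.2 CPM in Wnt2, 8.41 in CAF.CM and 41.7 in control medium, with log2 ratios of -1.36 and -2.31. Dennd4a, an activator of Rab10, had 127 CPM in Wnt2 and 56.4 in control medium, a log2 ratio of 1.17 (interval 1.13 to 1.21). Dennd1c, an activator of Rab35, was at -1.06 in CAF.CM against control medium and -1.25 (interval -1.66 to -0.88) with antibody against CAF.CM, the only gene of these lists past 2-fold there. Als2cl (-1.27) and Dennd6a (-1.09), an activator of Rab14, were also lower in CAF.CM. Of the GTPase-activating proteins, Tbc1d22a (-1.10) and Sgsm1 (-1.01) were lower in CAF.CM and Tbc1d30 (1.06) was higher. Tbc1d30 had 1.38 CPM in CAF.CM and 0.650 CPM in control medium. It is listed there only through the CAF.CM library, so it had to be higher in it.

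Rilp, the Rab7 effector that links late endosomes to dynein, had 1.69 CPM in CAF.CM and 4.804 CPM in control medium, a log2 ratio of -1.49 (interval -1.98 to -1.07). It was the one late endosome effector of 16 past 2-fold. The Rab11 effector Rab11fip4 had 9.34 CPM in Wnt2, 6.38 in CAF.CM and 23.8 in control medium, with -1.35 and -1.89, and the recycling endosome ATPase Ehd1 had 348 CPM in Wnt2 and 154 in control medium, at 1.18. Of the secretion effectors, the actin motor Myo5a had 207 CPM in CAF.CM and 436 in control medium, at -1.08. The Rab27 effector Sytl3 and the Rab13 effector Micall2 were at 1.14 and 1.11 in CAF.CM. Sytl3 had 1.96 CPM in CAF.CM and 0.876 CPM in control medium. It is listed there only through the CAF.CM library, so it had to be higher in it.

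The authors' deposited table for Wnt2 against control medium gives an adjusted p below 0.05 for 2 members, Rab7b (8.39e-08) and Rab44 (0.0423), 4.65% of members against 15.4% of all listed genes. For CAF.CM against control medium the authors' deposited table does so for 15 members, 34.1% against 32.6% of all genes, with Rab33a (8.01e-11) and Rab31 (3.53e-08) lowest. For antibody against CAF.CM the authors' deposited table does so for 3 members, Rab32 (0.0126), Rab27a (0.0361) and Rab29 (0.0468), 6.98% against 6.98% of all genes. The sources used here do not state the dispersion behind these values.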

How the data were processed

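Libraries were stranded and made from rRNA-depleted total RNA, per the labels' protocols. The submitters' processing notes name builds mm10 and GRCm38.p5 and the tools RSEM 1.2.29, STAR 2.4.2a and edgeR. The use of strand in counting is not stated in the sources used here. The authors deposited normalized CPM per library, 1 table per comparison, with their own log2 fold changes and adjusted p-values, per the file headers. The plan had assumed counts. At least 99.9% of CPM values were whole multiples (within 0.1 step) of 1 step per library, 0.00651 in Wnt2, 0.0431 in CAF.CM + Wnt2 Ab, 0.0384 in CAF.CM and 0.00706 in control medium, and reads were recovered from these steps. Columns present in 2 tables were identical (12848 and 12954 genes).

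For log2 ratios, edgeR 4.0.16 was run in R 4.3.3 (prior count 2, the authors' effective library sizes) over each whole table, and checked on simulated data. A count test was not run, since 1 library per group gives no spread. Called means at least 2-fold. Intervals came from scipy 1.17.1. Exon lengths (all annotated exons of a gene, merged), positions and shared 31-base words came from GENCODE M21. Alternatives were DESeq2 1.42.0 size factors, own TMM factors, total counts, prior counts of 0.5 and 5, a minimum of 100 counts, protein-coding scaling, the deposited ratios, a 1.5-fold threshold and intervals wholly beyond 2-fold.

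The members, roles and lists were chosen with earlier results of these data known. Values in all libraries are given for members past 2-fold and for the most abundant member per step in control medium, and for others picked after their values were seen (Rab32, Rab29, Rab11b, Rab35, Rab10, Rab27a, Rab44, and the markers Itgax, Irf4, Zbtb46, H2-Ab1 and Clec9a). From the lists, up to 4 genes per list and comparison past 2-fold are named. Of 59 Rab symbols looked for, 15 were not listed: Rab15, Rab17, Rab25, Rab9b, Rab38, Rab39, Rab3b, Rab3c, Rab26, Rab37, Rab30, Rab36, Rab39b, Rab40b and Rab42. A gene that is not listed is not shown to be unexpressed. Protein sequences were not used here.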

Additional observations from a re-analysis of the deposited data

How the results depend on the processing

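No paired analysis was possible because each group has 1 column. Under the alternatives, 76 values of counts and medians stayed close to those reported and 8 moved. For log2 ratios of members past 2-fold or most abundant in their step, 231 values stayed within the counting interval and 24 moved outside it. No called member changed direction. In CAF.CM against control medium, the count of members higher was 1 with a minimum of 100 counts, 4 at 1.5-fold and 1 where intervals had to lie wholly beyond 2-fold, against 2 as reported. The count lower was 1 with scaling on protein-coding genes and 10 at 1.5-fold, against 4 as reported. The members' median there was -0.036 with protein-coding scaling, against -0.20. In CAF.CM + Wnt2 Ab against CAF.CM, counts at 1.5-fold were 1 higher and 5 lower, against 0 and 0. Protein-coding scaling changed the sign of 7 members close to 0 in CAF.CM against control medium, Rab5b, Rab8a, Rab23, Rab21, Rab2a, Rab4b and Rab44. With 1 library per group the spread between cultures is unknown. A CAF.CM read is worth 0.0384 CPM, so members under a few CPM (Rab33a, Rab27b, Rab4a) have wide intervals.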
